A study of Homo sapiens with 4 samples.

Results

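Genes of mitosis and the G2/M transition were followed in OCI-Ly10 cells given siRNA against MYC, whose protein activates genes of growth and division. The genes were chosen by symbol. The rule took the gene families of centromere proteins (CENP), kinesins (KIF), BUB, Aurora, polo-like (PLK) and NIMA-related (NEK) kinases, cyclins A and B, CDC25 phosphatases and MAD2-like proteins, and in addition TPX2, TTK, CDC20, CDK1, TOP2A, BIRC5, MKI67, FOXM1, PTTG1 and WEE1. It found 50 genes on the array, of which 49 had a value on at least 2 arrays and are described here, among 4454 named genes with as many values. KIF21B had a value on 0 arrays, and PTTG1 was not analysed here. The 49 genes were measured by 125 of the 15154 features of the array.

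OCI-Ly10 cells are an established line from a human B-cell lymphoma of the diffuse large type, so all values come from a single line. Cells electroporated with 4 uM of a siRNA pool against MYC were compared with control cells on 4 arrays, each of which held the RNA of both. Against cells given a nonspecific siRNA to Renilla luciferase (control siRNA) there was 1 array at 24 h and 1 at 8 h. Against cells electroporated in buffer, Solution T, without siRNA (no siRNA) there was 1 array at 24 h and 1 at 6 h. Per the labels, MYC siRNA cells carried Cy5 and control cells Cy3 on each array, and 0 arrays had the dyes swapped. The values are log2 ratios, and a negative one means less transcript in MYC siRNA cells. The log base is not stated and was taken as log2. A direction of MYC siRNA over control is likely from the dyes but not stated. MYC itself was at -0.35 (24 h) and -0.94 (8 h) on the control siRNA arrays, and at -1.03 (24 h) and -1.26 (6 h) on the no siRNA arrays (mean -0.89 ± 0.39, SD, n = 4), and the sign of MYC helped to set that direction. Ratios hold no level, so B-cell identity could not be checked from marker genes.

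In mitosis, cyclin B with the kinase CDK1 starts division, and CDC25 phosphatases and WEE1 switch that kinase on and off. Kinetochores built on the centromere attach chromosomes to the spindle, which kinesins and the Aurora, polo-like and NEK kinases help to shape. The spindle checkpoint (BUB, MAD2 and TTK proteins) holds back CDC20 until every chromosome is attached. Many of these genes are transcribed as a group late in the cycle, through promoter elements called CHR and CCAAT boxes that are bound by the DREAM and MuvB complexes and by NF-Y. Their RNA is therefore often used as a measure of how many cells are dividing.

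Most of these genes did not pass the test, while a small set did, in both directions. With MYC siRNA, CENPH, NEK4, NEK2, KIF20B, TPX2, NEK6, BUB1B and CCNB2 fell, and CCNA1 and PLK2 rose. Of the 45 genes with a value on every array, 8 (17.8%) were lower, 2 (4.44%) higher and 35 did not pass (limma, adjusted p under 0.05 over 6798 rows, a row being a named gene or a feature without a symbol). Over all rows, 10.2% were lower and 5.56% higher, so the share of higher genes was near that background and the share of lower genes above it. An unadjusted p under 0.05 was found for 15 of the 45 genes (33.3%), beside 35.4% of all rows, so that share was near the background. The median of the 45 means was -0.07, beside -0.003 for all rows. In bulk RNA, fewer cells in G2 or mitosis and less RNA per such cell cannot be told apart.

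On single arrays, 32 of 45 genes lay below 0 at 24 h and 30 at 8 h with the siRNA control, and 27 at 24 h and 23 at 6 h with the control without siRNA. Of all rows, 48.7%, 50.5%, 53.7% and 51.9% lay below 0 on these arrays, in that order. The 6 h count was thus near its background, and the 24 h count without siRNA not far above it. The medians were -0.07 and -0.12 against control siRNA, and -0.08 and -0.0003 against no siRNA, in the same order. The lowest of the 4 medians was that of the 8 h array, and the 6 h array was at the level of all its rows (-0.01). The same sign on all 4 arrays was seen below 0 for 18 genes (40.0%), beside 23.3% of all rows. Above 0 it was seen for 3 genes (6.67%), CCNA1, PLK2 and CENPI, beside 19.4% of all rows.

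**Figure D1:**
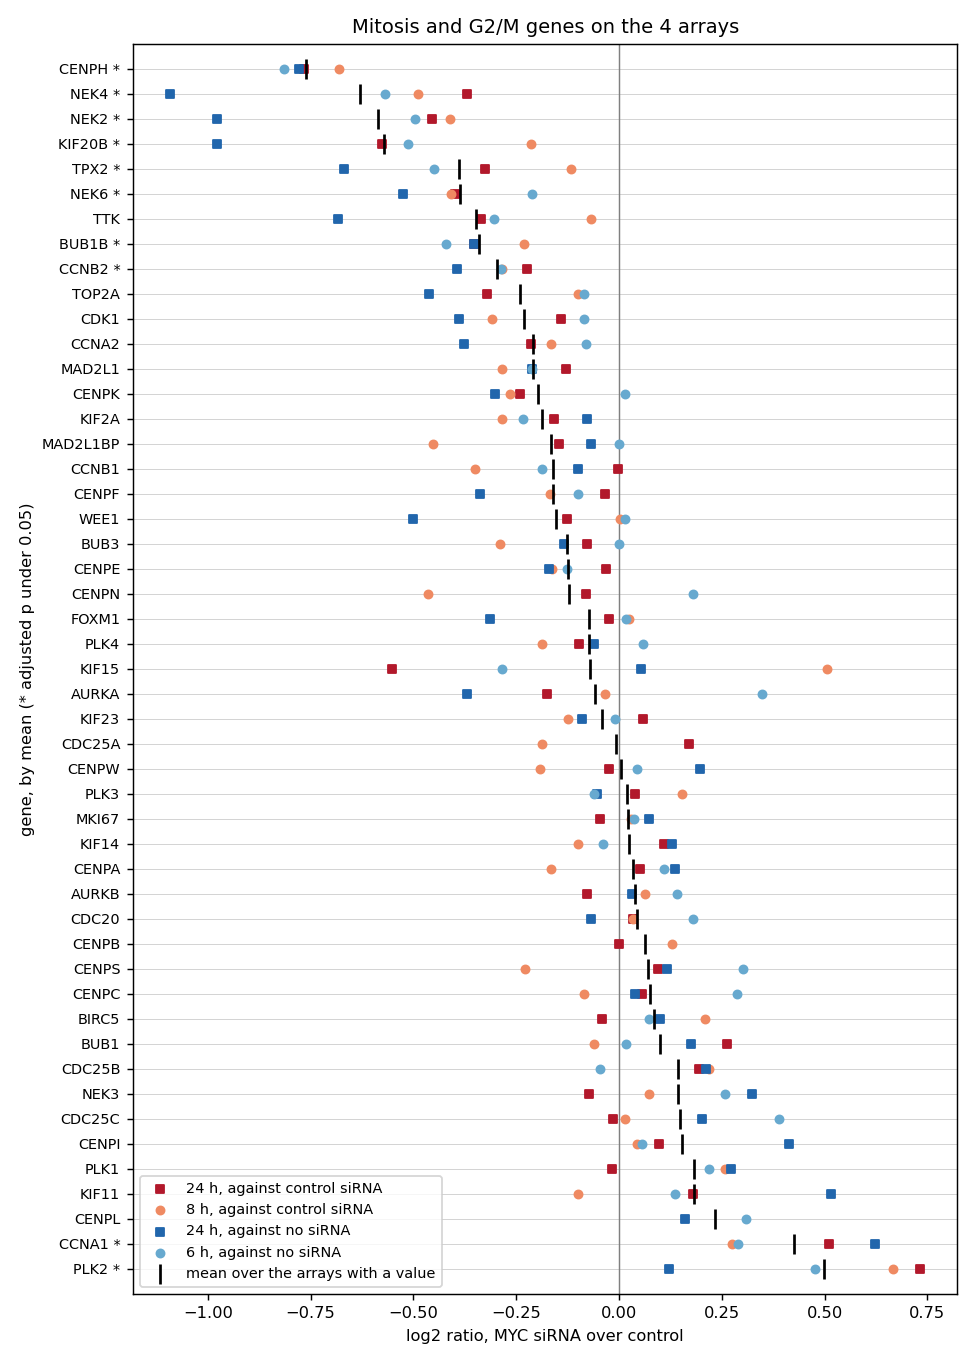
Log2 ratio of each of the 49 genes (rows, ordered by mean) on each of the 4 arrays (points, coloured by array), with the mean over arrays as a black bar and an asterisk on the genes that passed the test. CENPH stands at the low end with 4 values between -0.82 and -0.68, and CCNA1 and PLK2 at the high end with 4 values above 0.

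**Figure D2:**
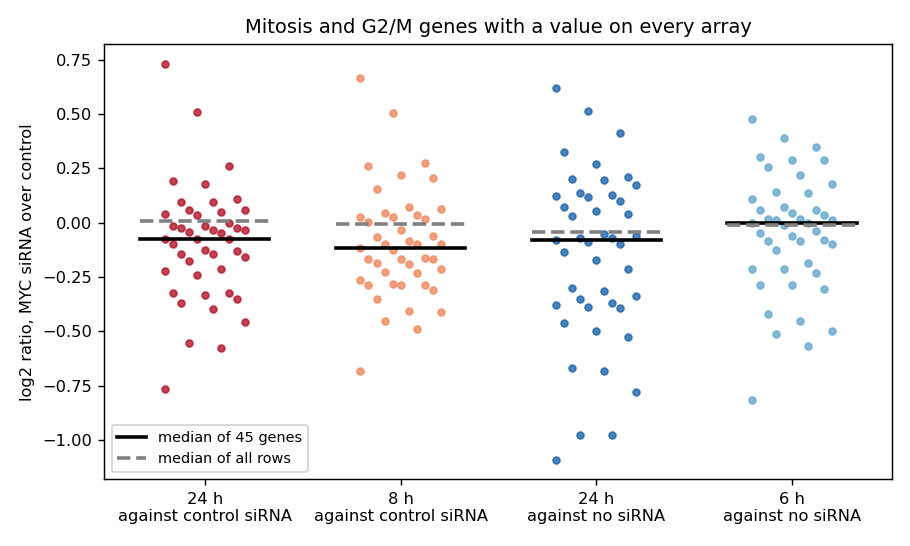
Log2 ratio (vertical axis) of the 45 genes with a value on every array, by array, with their median as a solid bar and the median of all 6798 rows as a dashed bar. The solid bar lies below the dashed one on the arrays at 24 h, 8 h and 24 h, and both are close to 0 on the 6 h array.

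Since genes that fell include classical late cell cycle genes, the promoter letters of the genes that passed were read. RefSeq promoter windows, from 250 bases before to 50 after the annotated start, were given for 40 of the 49 genes (build GRCh38.p14). AURKA, BIRC5, BUB3, CENPH, CENPL, FOXM1, TPX2, TTK and WEE1 had none. Motifs searched on both strands, with overlaps allowed, were TTTGAA (the CHR), CCAAT (the CCAAT box) and CACGTG (the E-box bound by MYC with MAX). The 200 bases before the start are shown for 4 genes that fell and for the cyclin gene that rose, in lower case with matches in capitals (a CCAAT box on the other strand reads ATTGG). They lie at chr15:59104946-59105145 (CCNB2, plus strand), chr15:40160869-40161068 (BUB1B, plus strand), chr1:211675622-211675821 (NEK2, minus strand), chr10:89701390-89701589 (KIF20B, plus strand) and chr13:36431755-36431954 (CCNA1, plus strand).
CCNB2: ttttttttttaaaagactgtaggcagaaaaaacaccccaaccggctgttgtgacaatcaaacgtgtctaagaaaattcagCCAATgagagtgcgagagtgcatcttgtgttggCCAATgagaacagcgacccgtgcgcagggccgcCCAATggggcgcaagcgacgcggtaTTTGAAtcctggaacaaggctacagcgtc
BUB1B: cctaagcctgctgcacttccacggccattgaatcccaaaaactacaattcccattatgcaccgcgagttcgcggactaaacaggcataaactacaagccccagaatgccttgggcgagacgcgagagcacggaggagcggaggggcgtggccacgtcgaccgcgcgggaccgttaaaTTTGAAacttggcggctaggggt
NEK2: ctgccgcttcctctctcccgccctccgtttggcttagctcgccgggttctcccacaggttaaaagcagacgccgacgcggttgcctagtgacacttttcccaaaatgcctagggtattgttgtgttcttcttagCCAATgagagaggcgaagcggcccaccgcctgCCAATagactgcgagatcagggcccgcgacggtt
KIF20B: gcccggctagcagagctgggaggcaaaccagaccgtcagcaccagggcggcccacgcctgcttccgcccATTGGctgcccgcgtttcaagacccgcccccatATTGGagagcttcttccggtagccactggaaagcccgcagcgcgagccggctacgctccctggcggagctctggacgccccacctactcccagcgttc
CCNA1: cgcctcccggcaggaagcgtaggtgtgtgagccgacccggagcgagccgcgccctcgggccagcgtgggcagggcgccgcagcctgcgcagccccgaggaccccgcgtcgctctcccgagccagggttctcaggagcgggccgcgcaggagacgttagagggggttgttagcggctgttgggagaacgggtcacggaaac

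In CCNB2, CCAAT boxes began at -244 (before the bases shown), -120, -87 and -54 and a CHR at -29, counted from the first transcribed base. BUB1B had a CHR at -23, NEK2 had CCAAT boxes at -66 and -34, and KIF20B had them at -131 and -98, with CHR matches at 25 and 31 past the start. The windows of NEK4, CCNA1 and PLK2 held 0 matches to any of the 3 motifs. A CHR was found in 20 of 40 genes of the group (50.0%), beside 18.2% of 27305 genes in the table. CCAAT boxes were found in 27 of 40 (67.5%), beside 39.7%, and E-boxes in 5 of 40 (12.5%), beside 8.77%. Among 3241 named genes that were tested and had a window, the shares were 16.7%, 45.0% and 13.2%, so E-boxes were near that background. Among genes with a window, a CHR was in 3 of 6 that fell, in 0 of 2 that rose and in 16 of 29 that did not pass. The shares with a CHR were thus 50.0% of genes that fell and 55.2% of genes that did not pass. E-boxes stood in CCNB1, CENPE, CENPF, CENPS and PLK1, and 0 of these 5 genes passed. A match is a description of letters in this window and not a bound site.

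**Figure D3:**
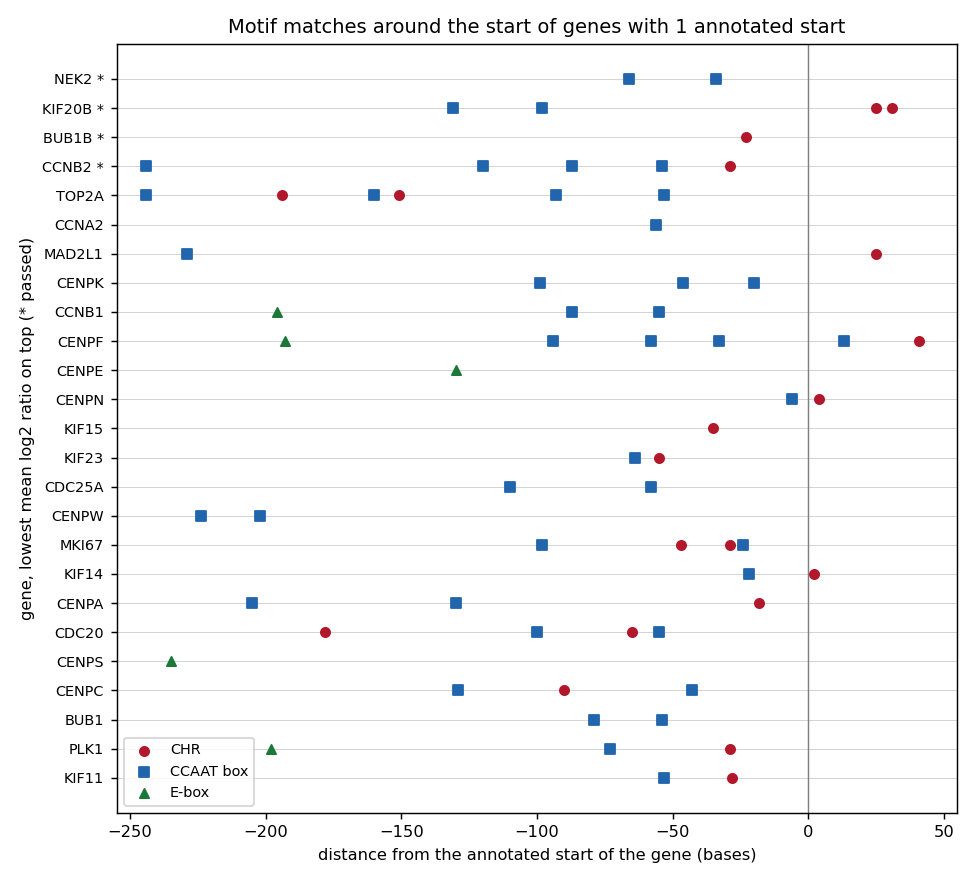
Position of CHR (circles), CCAAT box (squares) and E-box (triangles) matches, in bases from the annotated start, for genes with 1 annotated start and at least 1 match, the lowest mean log2 ratio on top. CCNB2 carries a CHR at -29, and PLK1, which did not pass, carries one at the same position.

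Of the cyclins and the enzymes of mitotic entry, 1 of 8 tested genes fell (12.5%), 1 rose (12.5%) and 6 did not pass. Over all rows, 10.2% were lower and 5.56% higher. Classes this small, here and below, allow no reading of a class as a whole. CCNB2, a B-type cyclin that partners CDK1, had log2 ratios of -0.22 (24 h) and -0.285 (8 h) on the control siRNA arrays, and -0.39 (24 h) and -0.29 (6 h) on the no siRNA arrays. All values were below 0 and lay close together, with a mean of -0.30 ± 0.07 (SD, n = 4; limma adjusted p = 0.0415). CCNA1, the A-type cyclin of male germ cells, was at 0.51 (24 h) and 0.28 (8 h) on the control siRNA arrays, and 0.62 (24 h) and 0.29 (6 h) on the no siRNA arrays. Its 24 h values were above its early ones with either control, and its mean was 0.43 ± 0.17 (SD, n = 4; limma adjusted p = 0.0242). CCNA2, the A-type cyclin of dividing body cells, was at -0.21 (24 h) and -0.17 (8 h) on the control siRNA arrays, and at -0.38 (24 h) and -0.08 (6 h) on the no siRNA arrays. CDK1 was at -0.14 (24 h) and -0.31 (8 h) on the control siRNA arrays, and at -0.39 (24 h) and -0.08 (6 h) on the no siRNA arrays. Both were below 0 on all 4 arrays and neither passed, with means of -0.21 ± 0.13 for CCNA2 and -0.23 ± 0.14 for CDK1 (SD, n = 4; limma adjusted p = 0.124 and 0.103). The 95% interval of the mean ran from -0.41 to -0.01 for CCNA2 and from -0.43 to -0.03 for CDK1.

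CCNB1, the other B-type cyclin, averaged -0.16 ± 0.15 and did not pass (SD, n = 4; limma adjusted p = 0.23). Its values were -0.002 (24 h) and -0.35 (8 h) on the control siRNA arrays, and -0.10 (24 h) and -0.19 (6 h) on the no siRNA arrays. WEE1, the kinase that holds CDK1 inactive, averaged -0.15 ± 0.24, with -0.13 (24 h) and 0.002 (8 h) on the control siRNA arrays, and -0.50 (24 h) and 0.01 (6 h) on the no siRNA arrays. Without the 24 h array against no siRNA its mean was -0.04. Of its 3 features 1 had values on the control siRNA arrays alone, at 0.16 (24 h) and -0.089 (8 h). The 2 complete features of WEE1 were at -0.318 and -0.219 at 24 h against control siRNA. At 24 h against no siRNA they were at -0.651 and -0.349. Of the CDC25 phosphatases that activate CDK1, CDC25B averaged 0.14 and CDC25C 0.15, and neither passed. CDC25A had values on 2 arrays and was not tested, with 0.17 (24 h) and -0.19 (8 h) on the control siRNA arrays.

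Among 8 tested mitotic kinases NEK2 and NEK6 fell, PLK2 rose and 5 did not pass. NEK2, which separates the centrosomes at the onset of mitosis, was at -0.455 (24 h) and -0.41 (8 h) on the control siRNA arrays, and -0.98 (24 h) and -0.50 (6 h) on the no siRNA arrays. Averaged over features, the 24 h array against no siRNA was the lowest, and the mean was -0.59 ± 0.26 (SD, n = 4; limma adjusted p = 0.0187). Its 2 features disagreed at 24 h against control siRNA, at -0.008 and -0.902. At 24 h against no siRNA they were at -0.931 and -1.026. NEK6, a kinase of spindle assembly, was at -0.40 (24 h) and -0.41 (8 h) on the control siRNA arrays, and -0.53 (24 h) and -0.21 (6 h) on the no siRNA arrays. Its mean was -0.39 ± 0.13 (SD, n = 4; limma adjusted p = 0.0254). PLK2, a polo-like kinase of centriole duplication that is also induced by stress, was at 0.73 (24 h) and 0.67 (8 h) on the control siRNA arrays, and 0.12 (24 h) and 0.48 (6 h) on the no siRNA arrays. It rose by 0.50 (SD 0.27, n = 4; limma adjusted p = 0.0251), with 0.70 as the mean against control siRNA and 0.30 against no siRNA.

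PLK1, the polo-like kinase that drives mitotic entry and spindle assembly, averaged 0.18 ± 0.13 (SD, n = 4; limma adjusted p = 0.169), with a 95% interval from -0.02 to 0.38. Its values were -0.02 (24 h) and 0.26 (8 h) on the control siRNA arrays, and 0.27 (24 h) and 0.22 (6 h) on the no siRNA arrays. AURKB, the kinase of the chromosomal passenger complex, was at -0.08 (24 h) and 0.06 (8 h) on the control siRNA arrays, and at 0.03 (24 h) and 0.14 (6 h) on the no siRNA arrays, a mean of 0.04 ± 0.09 with an interval from -0.15 to 0.23. AURKA, the Aurora kinase of centrosomes and spindle poles, averaged -0.06 ± 0.30, and its arrays were on both sides of 0, at -0.17 (24 h) and -0.03 (8 h) on the control siRNA arrays, and -0.37 (24 h) and 0.35 (6 h) on the no siRNA arrays. Without the 24 h array against no siRNA its mean was 0.05. PLK3, a stress-responsive kinase, was at 0.02 and PLK4, the kinase that starts centriole duplication, at -0.07. Outside the mitotic members of the NEK family, NEK4, which has been linked to the response to DNA damage, fell and NEK3 (0.14) did not pass. NEK4 was at -0.37 (24 h) and -0.49 (8 h) on the control siRNA arrays, and -1.09 (24 h) and -0.57 (6 h) on the no siRNA arrays (mean -0.63 ± 0.32, SD, n = 4; limma adjusted p = 0.019). Of its 2 features 1 had values on the control siRNA arrays alone, so the gap between the controls is partly a change of features. The feature with 4 values was at -0.753 and -0.633 against control siRNA, and at -1.091 and -0.570 against no siRNA, 24 h first.

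Of 6 checkpoint genes BUB1B fell and 5 did not pass, and their median was -0.19. BUB1B encodes BUBR1, which together with MAD2 inhibits CDC20. It was at -0.35 (24 h) and -0.23 (8 h) on the control siRNA arrays, and -0.35 (24 h) and -0.42 (6 h) on the no siRNA arrays, a mean of -0.34 ± 0.08 (SD, n = 4; limma adjusted p = 0.0298). TTK, the kinase MPS1 that starts checkpoint signalling, was named after its values were seen, since it lay next to the threshold. Its values were -0.335 (24 h) and -0.07 (8 h) on the control siRNA arrays, and -0.68 (24 h) and -0.30 (6 h) on the no siRNA arrays. The mean of -0.35 ± 0.25 did not pass (SD, n = 4; limma adjusted p = 0.0575), but did with scaled arrays (adjusted p = 0.0411), with the median of features (0.0496) and with time and control as terms (0.00932). It did not pass with complete features (limma adjusted p = 0.0669) or over rows with at least 2 arrays (0.0761). Centred arrays (0.0569), robust variances (0.0571) and leaving out any 1 array did not make it pass either. Its 2 complete features were at 0.273 and -0.372 at 8 h. MAD2L1, the MAD2 protein itself, was below 0 on all 4 arrays with a mean of -0.21 ± 0.06 (SD, n = 4; limma adjusted p = 0.105). BUB3 averaged -0.13, MAD2L1BP, which helps to take the checkpoint complex apart, -0.17, and BUB1, the kinase related to BUBR1, 0.10.

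Of 9 tested centromere and kinetochore genes, CENPH fell and 8 did not pass, and their median was 0.006. CENPH, a subunit of the inner kinetochore present throughout the cycle, was at -0.77 (24 h) and -0.68 (8 h) on the control siRNA arrays, and -0.78 (24 h) and -0.82 (6 h) on the no siRNA arrays. All values lay between -0.82 and -0.68, and the early arrays (mean -0.75) were about as low as the 24 h arrays (mean -0.77). Its mean of -0.76 ± 0.06 (SD, n = 4; limma adjusted p = 0.00946) ranked 26 from the lowest among 6798 rows, or from the highest if the ratio runs the other way. The gene rested on 1 feature. Its partner in the same inner complex, CENPK, averaged -0.20 ± 0.14 with -0.24 (24 h) and -0.26 (8 h) on the control siRNA arrays, and -0.30 (24 h) and 0.01 (6 h) on the no siRNA arrays, and did not pass (SD, n = 4; limma adjusted p = 0.147). CENPI, another subunit found with CENPH, averaged 0.15. CENPF and CENPE, large proteins that appear at kinetochores as cells enter mitosis, averaged -0.16 and -0.12. CENPA, the histone H3 variant that marks the centromere, averaged 0.03, CENPC 0.08, CENPS 0.07 and CENPW 0.006. Not tested were CENPL, with 0.16 (24 h) and 0.31 (6 h) on the no siRNA arrays, CENPB, with 0.001 (24 h) and 0.13 (8 h) on the control siRNA arrays, and CENPN. CENPN had -0.08 (24 h) and -0.46 (8 h) on the control siRNA arrays and 0.18 (6 h) on a no siRNA array.

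Of 6 mitotic kinesins KIF20B fell and 5 did not pass. KIF20B, a kinesin of cytokinesis, was at -0.58 (24 h) and -0.21 (8 h) on the control siRNA arrays, and -0.98 (24 h) and -0.51 (6 h) on the no siRNA arrays, a mean of -0.57 ± 0.31 (SD, n = 4; limma adjusted p = 0.0218). The ratio was lower at 24 h than early with either control, but against control siRNA this came from 1 of its 2 features. That feature went from -0.046 (8 h) to -0.798 (24 h), and the other from -0.383 to -0.355. KIF11, the motor that pushes spindle poles apart, had the next highest mean of the tested genes after PLK2 and CCNA1, at 0.18 ± 0.25, with 0.18 (24 h) and -0.10 (8 h) on the control siRNA arrays, and 0.52 (24 h) and 0.14 (6 h) on the no siRNA arrays (SD, n = 4; limma adjusted p = 0.246). KIF2A, a microtubule depolymerase, averaged -0.19 and was below 0 on all 4 arrays. KIF14 averaged 0.02, KIF23, the motor of the central spindle, -0.04, and KIF15 -0.07. KIF15 had the widest spread of the group (SD 0.46), from 1 feature at -0.55 (24 h) and 0.51 (8 h) on the control siRNA arrays, and 0.05 (24 h) and -0.285 (6 h) on the no siRNA arrays.

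Among 6 genes of the spindle, mitotic exit and chromosome structure, TPX2 fell and 5 did not pass. TPX2, which nucleates spindle microtubules and activates Aurora A, was at -0.325 (24 h) and -0.12 (8 h) on the control siRNA arrays, and -0.67 (24 h) and -0.45 (6 h) on the no siRNA arrays, a mean of -0.39 ± 0.23 (SD, n = 4; limma adjusted p = 0.0371). TOP2A, the topoisomerase that untangles sister chromatids, averaged -0.24 ± 0.18, with -0.32 (24 h) and -0.10 (8 h) on the control siRNA arrays, and -0.46 (24 h) and -0.08 (6 h) on the no siRNA arrays. It was below 0 on all 4 arrays but did not pass (limma adjusted p = 0.106, n = 4). MKI67, whose protein Ki-67 is the usual marker of dividing cells, was at -0.05 (24 h) and 0.03 (8 h) on the control siRNA arrays, and at 0.07 (24 h) and 0.04 (6 h) on the no siRNA arrays, a mean of 0.02 ± 0.05 (SD, n = 4) with a 95% interval from -0.16 to 0.205. The average over features thus stayed close to 0, but the features disagreed. Of 5 MKI67 features complete on all arrays 3 had means below 0, and the means ran from -0.10 to 0.25. At 24 h against no siRNA these features read from -0.264 to 0.577. CDC20, which turns on the anaphase-promoting complex, was at 0.03 (24 h) and 0.035 (8 h) on the control siRNA arrays, and at -0.07 (24 h) and 0.18 (6 h) on the no siRNA arrays, a mean of 0.04 ± 0.10 with an interval from -0.15 to 0.24. BIRC5, which encodes survivin of the passenger complex, was at -0.04 (24 h) and 0.21 (8 h) on the control siRNA arrays, and at 0.10 (24 h) and 0.07 (6 h) on the no siRNA arrays, a mean of 0.08 ± 0.10 with an interval from -0.11 to 0.28. FOXM1, a transcription factor of late cell cycle genes, was at -0.02 (24 h) and 0.025 (8 h) on the control siRNA arrays, and at -0.31 (24 h) and 0.02 (6 h) on the no siRNA arrays, a mean of -0.07 ± 0.16 with an interval from -0.28 to 0.13. Its mean rested on the 24 h array without siRNA, and was 0.0064 when that array was left out. In the main fit a mean as low as the -0.30 of CCNB2 lay outside each of these 4 intervals, but only narrowly for FOXM1 (lower limit -0.28). With the median of features FOXM1 averaged -0.13, and whether -0.30 lies outside its interval there was not tested. The 3 features of FOXM1 had means from -0.23 to 0.11, and the 2 of BIRC5 from -0.06 to 0.23.

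Features of 1 gene did not always go the same way. Of 33 genes with several features complete on all arrays, 16 had all feature means on one side of 0 and 17 on both sides, and the median range between a gene's features was 0.26. The 4 features of CDK1 averaged from -0.29 to -0.16, the 5 of MAD2L1 from -0.36 to -0.09, and the 4 of PLK1 from 0.11 to 0.34. Both features of NEK2, KIF20B, TPX2 and NEK6 had means below 0, and both of CCNA1 above 0. BUB1B had 1 feature at -0.60 and 1 at -0.08, so its call rested mainly on the first. CDC25C spread most, from -0.33 to 0.47. CENPH, CCNB2 and PLK2 were measured by 1 feature each.

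**Figure D4:**
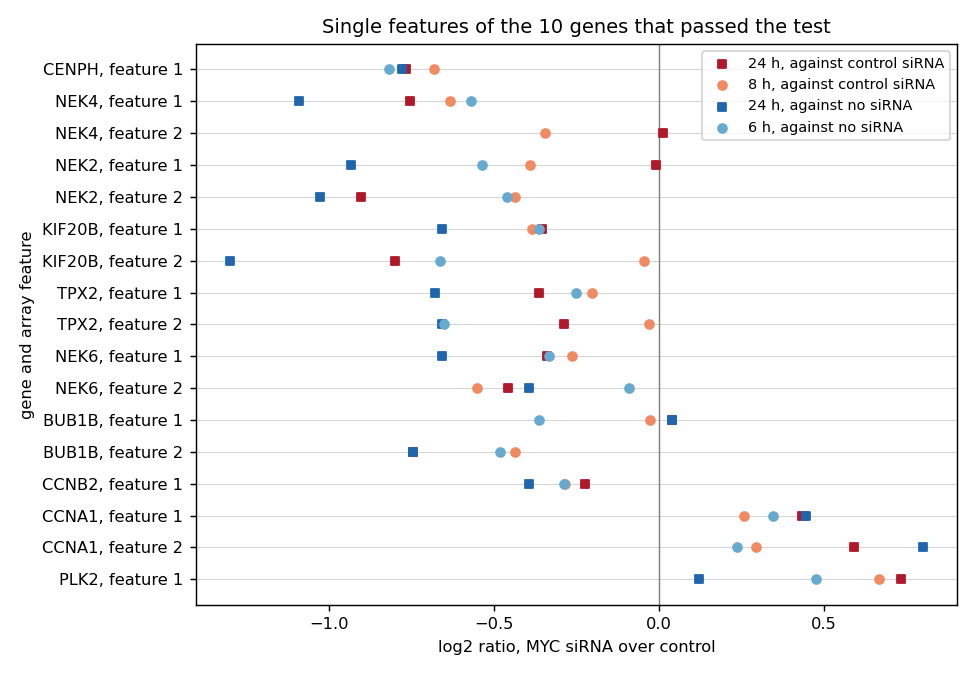
Log2 ratio of each feature (rows) of the 10 genes that passed, on each of the 4 arrays (points, coloured by array). The 2 features of BUB1B differ, with means of -0.60 and -0.08, and those of TPX2 and NEK6 lie close together.

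The change with time was tested as 24 h minus the early array, with both controls in 1 model. Of the 45 genes 0 passed, beside 0.118% of all rows, and 2 (AURKA and KIF20B) had an unadjusted p under 0.05, both lower at 24 h. That is 4.44% of the genes, beside 10.1% of all rows, so no change with time can be read from these genes. This test had 1 residual degree of freedom. AURKA averaged -0.27 at 24 h and 0.16 early, a difference of -0.43 (SE 0.19; limma adjusted p = 0.461). Its 3 features disagreed against control siRNA, where 1 went from 0.455 (8 h) to -0.243 (24 h). The others rose there, from -0.341 to -0.16 and from -0.213 to -0.12. KIF20B averaged -0.78 at 24 h and -0.36 early, a difference of -0.41 (SE 0.18; limma adjusted p = 0.444). The ratio was lower at 24 h than early with either control for 12 genes, higher with either for 9, and of mixed direction for the others. The matching shares of all rows were not computed, so these counts show nothing particular to these genes. The median difference was -0.05, beside 0.0005 for all rows.

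**Figure D5:**
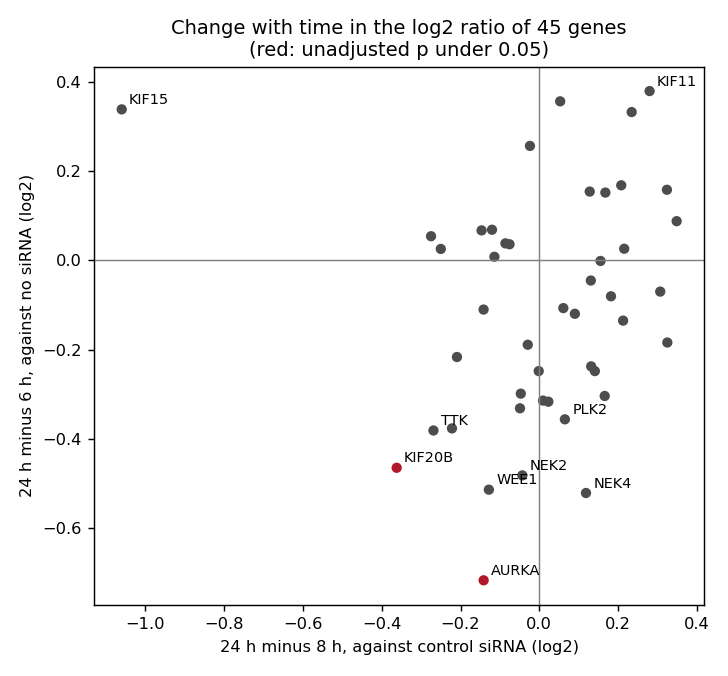
Difference in log2 ratio between the 24 h array and the early array of the same control, with control siRNA on the horizontal axis (24 h minus 8 h) and no siRNA on the vertical axis (24 h minus 6 h), for 45 genes. AURKA and KIF20B (red) are below 0 on both axes, and KIF15 lies far to the left at -1.06 but above 0 on the vertical axis.

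The kind of control was tested in the same model, as control siRNA minus no siRNA. The array identifiers fall into separate ranges for the 2 controls, so control and array batch cannot be told apart. Of the 45 genes 0 passed, beside 0.0883% of all rows, and 1, PLK2, had an unadjusted p under 0.05, which is 2.22% of the genes beside 10.1% of all rows. Its difference was 0.40 (SE 0.19; limma adjusted p = 0.486). Of the genes that passed the test of MYC siRNA, TPX2 averaged -0.22 against control siRNA and -0.56 against no siRNA, NEK2 -0.43 and -0.74, and KIF20B -0.40 and -0.75. NEK4 averaged -0.43 and -0.83, a difference of 0.40 like that of PLK2. For NEK4, however, 1 of its 2 features had values on the control siRNA arrays alone. CENPH (-0.72 and -0.80), NEK6 (-0.40 and -0.37), BUB1B (-0.29 and -0.39), CCNB2 (-0.25 and -0.34) and CCNA1 (0.39 and 0.46) differed by less than 0.1 between the controls.

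Other genes of the same processes, outside the symbol rule, were read from lists made by role. Of 44 measured of 97 listed, 4 fell, 0 rose and 40 did not pass (limma, beside 10.2% lower and 5.56% higher over all rows), with a median of -0.09. Neither share was above that background. An unadjusted limma p under 0.05 was found for 9 of the 44, beside 35.4% of all rows. In the list of condensin and cohesin, STAG1, a cohesin subunit, averaged -0.48 ± 0.12 (SD, n = 4; limma adjusted p = 0.0181) and PDS5A, a cohesin regulator, -0.43 ± 0.26 (SD, n = 4; limma adjusted p = 0.0326), and 9 of 11 did not pass. Of 12 spindle and cytokinesis genes NUF2, of the outer kinetochore complex NDC80, fell, at -0.46 ± 0.27 (SD, n = 4; limma adjusted p = 0.029). Its ratio was -0.38 (24 h) and -0.21 (8 h) on the control siRNA arrays, and -0.84 (24 h) and -0.39 (6 h) on the no siRNA arrays. Of 6 genes of the anaphase-promoting complex and its partners CDC16, a subunit, fell, at -0.37 ± 0.17 (SD, n = 4; limma adjusted p = 0.0333). Of 15 regulators of G2/M transcription and checkpoints 0 passed (limma, with 1 at an unadjusted p under 0.05), and their median was -0.01. Of the markers of other blood cells, 0 of 6 of T cells, 0 of 3 of monocytes and 0 of 2 of red cells passed (1 of these, of monocytes, had an unadjusted p under 0.05), while of 7 B-cell markers CD74, CD79A and CD72 rose, at 0.37, 0.41 and 0.41. The other B-cell markers, CD79B (0.20), PAX5 (0.10), MS4A1 (-0.06) and CD22 (-0.06), did not pass, and over rows with at least 2 arrays CD79A (adjusted p = 0.0541) and CD72 (adjusted p = 0.0647) did not either. Their part in the results was not tested.

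Each call rested on 4 arrays. Without the 24 h array against control siRNA, or without the 6 h array, 0 of 45 genes passed (limma), when 4 and 0 of all 6798 rows did and 1895 and 2179 rows had an unadjusted p under 0.05. Without the 8 h array 5 fell and 1 rose, beside 4.56% of all rows lower and 1.93% higher. Without the 24 h array against no siRNA 3 fell and 1 rose, beside 2.68% lower and 0.765% higher. The mean of CENPH stayed between -0.79 and -0.74, that of CCNB2 between -0.32 and -0.27 and that of NEK2 between -0.64 and -0.45 when any 1 array was left out.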

How the data were processed

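The authors deposited 1 processed log2 ratio per feature and array, for 4 arrays with 2 channels. How they were normalized and corrected for background, in which log base and direction, and why some cells are empty is not given in the sources used here. Values reached 6.63 and were centred near 0, which was taken as log2. Between 12028 and 12784 features had a value per array, and 0 pairs of arrays were copies of each other (Pearson's r over features from 0.354 to 0.588). Depth is unknown, and the number of arrays limits the precision.

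Symbols came from the platform annotation, updated by Entrez ID (10124 features) or accession (17) through a RefSeq table of GRCh38.p14, and 24 were kept. The 4 features with more than 1 symbol stayed unnamed. Features of 1 gene were averaged on each array. The mean of 6798 rows with 4 values was tested against 0 with limma 3.58.1 (lmFit and eBayes, R 4.3.3), with Benjamini-Hochberg adjustment over all rows and a threshold of 0.05. Time and control were 2 terms of 1 model. The code was tested on simulated data. Alternatives were other rows, feature summaries, centring, scaling, robust variances, other terms and leaving out each array. Whether arrays came from separate cultures is not in the labels, so p-values measure the spread between arrays, which may be technical. In the main test that spread also holds differences of time and control, since each array is another combination of them.

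Members and lists were chosen with earlier results of these data known. Full values are given for members that passed, the 3 highest means, members with the largest time differences (unadjusted p under 0.05) and CCNA2, CCNB1, CDK1, PLK1, AURKA, AURKB, CDC20, TOP2A, BIRC5, MKI67, FOXM1 and WEE1. MYC and other listed genes that passed are named too, as are TTK and further members outside this rule, chosen after their values were seen, to complete each role class. Promoter sequences are RefSeq's (GRCh38.p14).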

Additional observations from a re-analysis of the deposited data

Results flagged for a closer look

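Of 45 genes with 4 values, 4 had 1 array far from the other 3 by Dixon's test, which flags about 1 group in 20 by chance. NEK2 was lowest on the 24 h array against no siRNA, at -0.978, beside values from -0.497 to -0.412. These are averages over its 2 features, which were at -0.008 and -0.902 on the 24 h array against control siRNA. FOXM1 was lowest on the 24 h array against no siRNA, at -0.313, beside values from -0.024 to 0.025. CENPI was highest on that array, at 0.413, beside values from 0.044 to 0.097. CDC25B was lowest on the 6 h array, at -0.046, beside values from 0.194 to 0.218. Of its 4 features only 1 was below 0 on that array, at -0.467, and the others were at 0.115, 0.029 and 0.141. The 24 h array against no siRNA also had the widest spread over all features (SD 0.447, beside 0.288 to 0.327 on the others), and its part in these values was not tested.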

How the results depend on the processing

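The counts of genes that fell and rose with MYC siRNA, 8 and 2, were within 1.5 times of these in every setting that kept all 4 arrays: 6 and 2 over rows with at least 2 arrays (TPX2, adjusted p = 0.0519, and CCNB2, adjusted p = 0.058, did not pass), 8 and 2 with complete features, centred arrays or robust variances, and 9 and 2 with the median of features, scaled arrays or time and control as terms. With 1 array left out they ranged from 0 to 5 lower and from 0 to 1 higher, other listed genes from 0 to 3 lower, and all rows from 0 to 310 lower and from 0 to 131 higher. Fewer residual degrees of freedom remain there, and the median of the 45 genes stayed between -0.1154 and -0.0577. With time and control as terms 1124 rows (16.5%) were lower and 856 (12.6%) higher. There, 9 of 45 genes lower was near the background and 2 of 45 higher was below it. Over rows with at least 2 arrays 6.23% of all rows were lower and 3.0% higher. In the other settings with all 4 arrays 9.75% to 11.3% were lower and 5.28% to 7.31% higher. Without the 6 h array CDC20 averaged -0.0002, and without the 24 h array against no siRNA AURKA averaged 0.0467 and FOXM1 0.0064, the opposite sign to their means. Over the 4 fits with 1 array left out, AURKA ran from -0.1921 to 0.0467, CDC20 from -0.0002 to 0.0825 and FOXM1 from -0.1062 to 0.0064. For 24 h minus early 8 rows passed (687 at an unadjusted p under 0.05), and 26 with complete features, 98 with the median of features, 61 with centred arrays, 0 with scaled arrays (486 unadjusted), 5 with robust variances and 0 without the control term (437 unadjusted). For control siRNA minus no siRNA 6 rows passed, and 37 with complete features, 162 with the median of features, 89 with centred arrays, 0 with scaled arrays (565 unadjusted) and 0 without the time term (454 unadjusted). In all of these limma fits 0 of the 45 genes passed. Rows with at least 2 arrays could not be fitted beyond the complete ones in that model. The cause of these moves was not tested. No paired analysis was possible because replicate numbers here only name the 4 arrays of 1 group. The nearest fit to one is that with time and control as terms, given above.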
